A study of Mus musculus with 3 samples.

Results

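The caveolae genes are the caveolins Cav1 and Cav2, the cavins Cavin1, Cavin2 and Cavin3, and Ehd2. They were picked by symbol from the 53380 genes of the count matrices, where all 6 were present, and were followed by cell class in single-cell RNA sequencing of the mouse sciatic nerve. Sorted TdTomato-positive cells gave 3 libraries, from intact nerve and from the tissue bridging an injury, taken at day 7 and at day 21. With 1 library per group, no replicate stands behind any difference, and no test was made.

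All 3 groups carried the same alleles, an R26-TomatoLSL reporter switched on by Pdgfrb-cre/ERT2, so the sort took cells in which the Pdgfrb-driven Cre had been active. The labels give neither the age nor the sex of the animals. Nerves were pooled within a library. Beads that remove myelin were used for intact nerve only, so that step cannot be told apart from the absence of injury. The authors' annotation put 1343, 1780 and 4111 cells of the intact, day 7 and day 21 libraries into 6 classes, with a median of 5667, 19316 and 7442 UMIs per cell in that order. The classes MES_PERI, MES_ENDO and MES_EPI are called perineurial, endoneurial and epineurial here, MES_DIV is called dividing, and MES_DIFF and MES_EPI-diff keep their names. In each library, 8 of 8 markers of each nerve layer were highest in the class of that layer among these 3. The libraries shared between 41 and 58 cell barcodes pair by pair, of which at most 2 were annotated in both.

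Caveolae are small flask-shaped pits of the plasma membrane, abundant in endothelium, smooth muscle and fat cells. Caveolins insert into the inner leaflet and bind cholesterol, and cavins coat the bulb from the cytosol; Cav1 and Cavin1 are both needed for the pit to form outside striated muscle. Flattening of caveolae buffers membrane stretch, and the perineurium, the cellular sheath around nerve fascicles, is a barrier tissue whose cells carry many such pits.

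Cav1 and Cav2 lie side by side on the plus strand of chromosome 6, at chr6:17306335-17341452 and chr6:17281185-17289115 of GRCm38, the build of the matrices. The other members are dispersed, with Cavin2 on chromosome 1 (chr1:51289126-51302960, plus strand), Cavin1 on chromosome 11 (chr11:100956733-100970887, minus strand), and Ehd2 and Cavin3 far apart on chromosome 7 (chr7:15946958-15967567 and chr7:105480083-105482300, both minus strand). The promoter windows of the neighbouring caveolins and of Cavin2 are shown for contrast. Both caveolins were lowest at day 7 over all annotated cells. Cavin2 was the member that differed most between the layer classes in intact nerve. Each window runs 5′ to 3′ on the plus strand, from 250 bases before the RefSeq start through 50 bases from it, as RefSeq gives it on GRCm38.p6. Capitals mark the motif GGGCGG, the CCAAT box and the AP-1 type motif TGANTCA on either strand, where N is any base, and overlapping matches share capitals. The windows are chr6:17306085-17306384 for Cav1 (1 of 2 starts listed for it), chr6:17280935-17281234 for Cav2 and chr1:51288876-51289175 for Cavin2.
Cav1: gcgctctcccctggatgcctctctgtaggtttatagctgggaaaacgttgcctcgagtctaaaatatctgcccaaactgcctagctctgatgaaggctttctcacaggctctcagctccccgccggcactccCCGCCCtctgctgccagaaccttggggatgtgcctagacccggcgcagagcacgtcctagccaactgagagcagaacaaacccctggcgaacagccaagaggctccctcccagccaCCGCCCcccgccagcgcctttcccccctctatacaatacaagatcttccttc
Cav2: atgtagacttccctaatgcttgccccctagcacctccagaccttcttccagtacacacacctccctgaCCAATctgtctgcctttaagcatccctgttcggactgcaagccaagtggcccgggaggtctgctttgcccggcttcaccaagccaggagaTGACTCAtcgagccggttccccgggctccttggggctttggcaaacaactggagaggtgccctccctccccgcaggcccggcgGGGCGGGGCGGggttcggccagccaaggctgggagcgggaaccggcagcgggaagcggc
Cavin2: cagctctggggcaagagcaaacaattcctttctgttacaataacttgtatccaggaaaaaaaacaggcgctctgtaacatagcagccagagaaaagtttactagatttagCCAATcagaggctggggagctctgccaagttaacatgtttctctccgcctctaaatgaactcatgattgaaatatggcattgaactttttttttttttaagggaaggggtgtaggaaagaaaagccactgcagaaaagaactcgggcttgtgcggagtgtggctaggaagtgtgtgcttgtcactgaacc
These motifs were chosen after the sequences had been read, and a match describes the letters only. GGGCGG occurred 2 times in the Cav1 window and 2 times, with shared bases, in the Cav2 window, but not in the Cavin2 window, and 35.9% of 27025 promoter windows held it. CCAAT occurred 1 time each in Cav2 and Cavin2 and in 37.9% of all windows. TGANTCA occurred 1 time in Cav2 and in 7.93% of all windows. The Cavin2 window was 43.3% G and C with 4 CpG dinucleotides, against 59.3% and 13 in Cav1, 64.3% and 16 in Cav2, and medians of 52.7% and 7 over all windows. The windows of Cavin1 and Ehd2 were 66.7% and 62.0% G and C.

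Over all annotated cells, the caveolins were lowest at day 7 and highest at day 21. Levels are counts scaled to the summed UMIs of the cells (CPM). Cav1, the main structural caveolin, stood at 222 CPM in intact nerve, 43.8 CPM at day 7 and 626 CPM at day 21. Cav2, its partner in the pit coat, stood at 61.4, 9.01 and 102 CPM in the same order. Cavin1, the cavin that holds the coat together, was at 355, 173 and 594 CPM. The pattern of the caveolins and Cavin1 was thus the same, with day 7 low and day 21 above intact nerve.

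Cavin2, an adaptor cavin that helps bend the membrane, stood at 52.2 CPM in intact nerve, 16.1 CPM at day 7 and 131 CPM at day 21. Ehd2, the ATPase at the neck of the pit, stood at 122, 71.5 and 158 CPM. Cavin3, a cavin that also binds protein kinase C delta, was nearly level at 466, 454 and 537 CPM. Summed over the 6 members, caveolae genes made up 1278, 768 and 2149 CPM. In bulk sums such as these, fewer cells of a type and less RNA per cell cannot be told apart, which is why each class is given next.

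At day 7 against intact nerve, 4 of 6 members were more than 2-fold lower over all annotated cells and 0 were higher, where 9.55% of the 8671 genes compared were lower and 7.58% higher. Against intact nerve, day 21 had 2 of 6 members more than 2-fold higher, beside 4.9% of genes, and 0 lower, beside 4.93%. These were Cav1, 2.82-fold (95% interval 2.69 to 2.96), and Cavin2, 2.52-fold (2.28 to 2.79). With the 3 layer classes weighted alike in each library, Cav1 had a log2 ratio of 0.08 and Cavin2 turned to -0.67. The class makeup moved with this result, since perineurial cells were 8.64% of annotated cells in intact nerve, 13.5% at day 7 and 50.3% at day 21. They held 46.0%, 33.7% and 81.2% of the Cav1 counts in that order, and 78.3%, 25.1% and 82.3% of the Cavin2 counts. At day 21 against day 7, 5 of 6 members were higher, all but Cavin3, beside 5.95% of genes, and 0 were lower, beside 4.04%.

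Perineurial cells held the highest levels of the caveolins, Cavin1 and Cavin2 among the 3 layer classes in every library. Cav1 was at 1176 CPM in intact perineurial cells (95% interval 1098 to 1258), 142 CPM at day 7 and 1280 CPM at day 21. In endoneurial cells, the fibroblasts inside the fascicle, Cav1 was at 172, 29.2 and 168 CPM, and in epineurial cells, those of the outer sheath, at 93.2, 18.1 and 78.5 CPM. Day 7 was thus the lowest in each layer class, with day 21 near the intact value. The day 21 epineurial level was no higher than in myeloid barcodes, given further on. The perineurial level was 6.84-fold the endoneurial level in intact nerve, 4.87-fold at day 7 and 7.63-fold at day 21, and 12.6- and 7.85-fold the epineurial level in intact nerve and at day 7. More than 2-fold higher in perineurial than in endoneurial cells were 4 of 6 members in intact nerve, 3 at day 7 and 5 at day 21, beside 18.8%, 4.04% and 9.88% of genes. Against epineurial cells these were 5, 3 and 5, beside 18.8%, 8.92% and 11% of genes. The authors' classes come from clustering these same cells, so the order of the classes is a description.

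Cav2 in perineurial cells stood at 325 CPM in intact nerve, 23.7 CPM at day 7 and 207 CPM at day 21. It stood at 53.9, 6.69 and 47.8 CPM in endoneurial cells and at 19.5, 3.91 and 13.3 CPM in epineurial cells. Unlike Cav1, perineurial Cav2 at day 21 stayed below intact nerve, 1.58-fold lower (95% interval 1.37 to 1.80), where Cav1 was 1.09-fold higher (1.02 to 1.17). The ratio of Cav1 to Cav2 counts in perineurial cells was 3.61 in intact nerve, 5.99 at day 7 and 6.20 at day 21.

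Cavin1 in perineurial cells stood at 950, 234 and 908 CPM in intact nerve, at day 7 and at day 21. In endoneurial cells it stood at 283, 137 and 315 CPM, and in epineurial cells at 308, 211 and 355 CPM. The Cav1 to Cavin1 count ratio in perineurial cells was 1.24 in intact nerve, 0.608 at day 7 and 1.41 at day 21. In epineurial cells that ratio was 0.302 in intact nerve, 0.0858 at day 7 and 0.221 at day 21, lowest at day 7 in both classes. The day 21 epineurial ratio rests on a Cav1 level no higher than in myeloid barcodes, so no return is read from it.

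**Figure D1:**
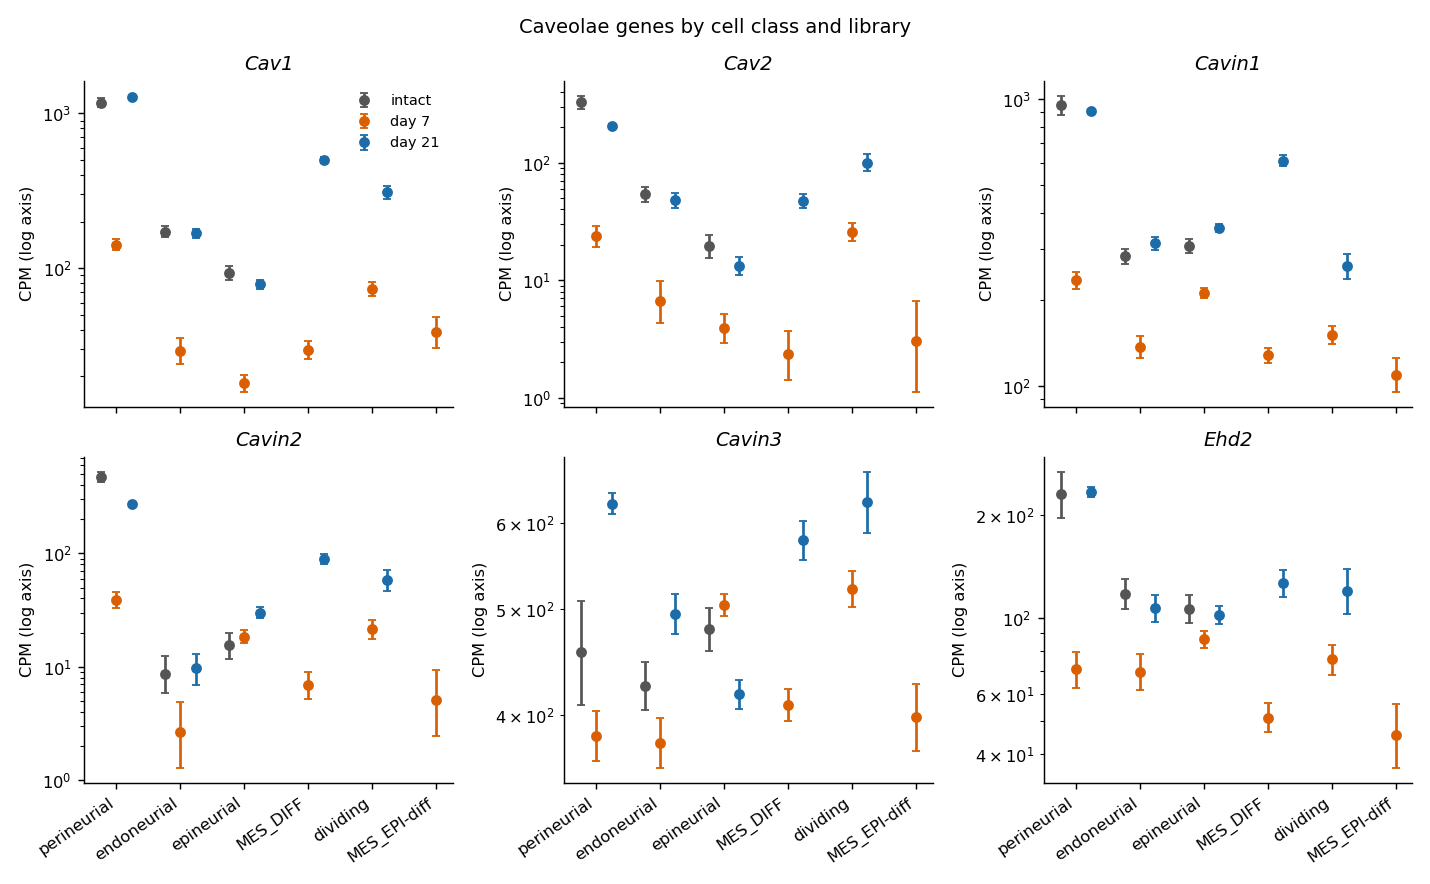
Level of each caveolae gene (CPM, log axis) by the authors' cell class, with a point for each library in the order intact, day 7 and day 21 and bars for exact 95% Poisson intervals, which cover counting error only. Classes with fewer than 50 cells in a library have no point. Perineurial Cav1 is at 1176, 142 and 1280 CPM, and day 7 is the lowest point in each layer class for Cav1, Cav2, Cavin1 and Ehd2.

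In intact nerve, Cavin2 separated the layer classes most. At day 7 and day 21, perineurial and epineurial cells lay closer together in Cavin2 than in Cav1. Cavin2 was at 472, 38.9 and 272 CPM in perineurial cells of intact nerve, day 7 and day 21. It was at 8.65, 2.68 and 9.65 CPM in endoneurial cells and at 15.5, 18.5 and 30.1 CPM in epineurial cells. The perineurial level was 54.5-fold the endoneurial level in intact nerve (95% interval 37.5 to 82.1). At day 7 and day 21 the endoneurial level was not above that of myeloid barcodes, at 1.74 CPM (0.473 to 4.44) and 14.9 CPM (8.85 to 23.6), beyond counting error, so no fold is given there, and intact nerve had too few such barcodes for this check. Epineurial Cavin2 did not share the day 7 dip, with a log2 ratio of 0.25 against intact nerve, and at day 21 its log2 ratio was 0.95. Perineurial Cavin2 at day 21 was 1.73-fold lower than in intact nerve (1.55 to 1.93).

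Ehd2 in perineurial cells stood at 229, 70.6 and 233 CPM in the same order. It stood at 117, 69.6 and 106 CPM in endoneurial cells and at 106, 86.5 and 102 CPM in epineurial cells. At day 7 the 3 classes thus lay close together, while in the other libraries perineurial cells stood above both. Cavin3 was the flattest member, at 456, 383 and 625 CPM in perineurial cells, 425, 377 and 495 CPM in endoneurial cells and 479, 504 and 418 CPM in epineurial cells.

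Within the perineurial class, 5 of 6 members were more than 2-fold lower at day 7 than in intact nerve, all but Cavin3, beside 18.6% of the 8948 genes compared. The log2 ratios were -3.05 for Cav1, -3.77 for Cav2, -2.02 for Cavin1, -3.60 for Cavin2 and -1.70 for Ehd2, against -0.25 for Cavin3, where the median gene was at -0.14. As folds, Cav1 was 8.28-fold lower (95% interval 7.42 to 9.24), Cav2 13.7-fold (10.7 to 17.7), Cavin2 12.1-fold (9.95 to 14.8) and Cavin1 4.07-fold (3.68 to 4.50). By day 21, 0 of 6 were past 2-fold of intact nerve in either direction, beside 6.99% of genes higher and 10.1% lower. The same 5 members were more than 2-fold higher at day 21 than at day 7, beside 7.32% of genes, and 0 were lower, beside 4.94%, with log2 ratios between 1.72 and 3.17.

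Within the endoneurial class, 3 of 5 measured members were more than 2-fold lower at day 7 than in intact nerve, Cav1, Cav2 and Cavin1, beside 9.68% of genes, and Cavin2 did not reach the minimum of 10 CPM. Within the epineurial class, Cav1 and Cav2 were lower, 2 of 6, beside 8.16% of genes. In both classes day 7 Cav2 was at or below the myeloid level, given further on, so the size of its ratios cannot be read. Intact nerve had too few myeloid barcodes to check the intact levels of Cav1 and Cav2. Neither class had a member past 2-fold at day 21 against intact nerve, with 0 of 5 and 0 of 6, beside 4.19% of genes higher and 5.1% lower in endoneurial cells and 3.58% and 3.68% in epineurial cells. Against day 7, 3 of 5 were higher at day 21 in endoneurial cells, beside 4.28% of genes, and 2 of 6 in epineurial cells, beside 3.62%. The epineurial pair was Cav1 and Cav2, whose day 21 levels were no higher than those of myeloid barcodes.

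**Figure D2:**
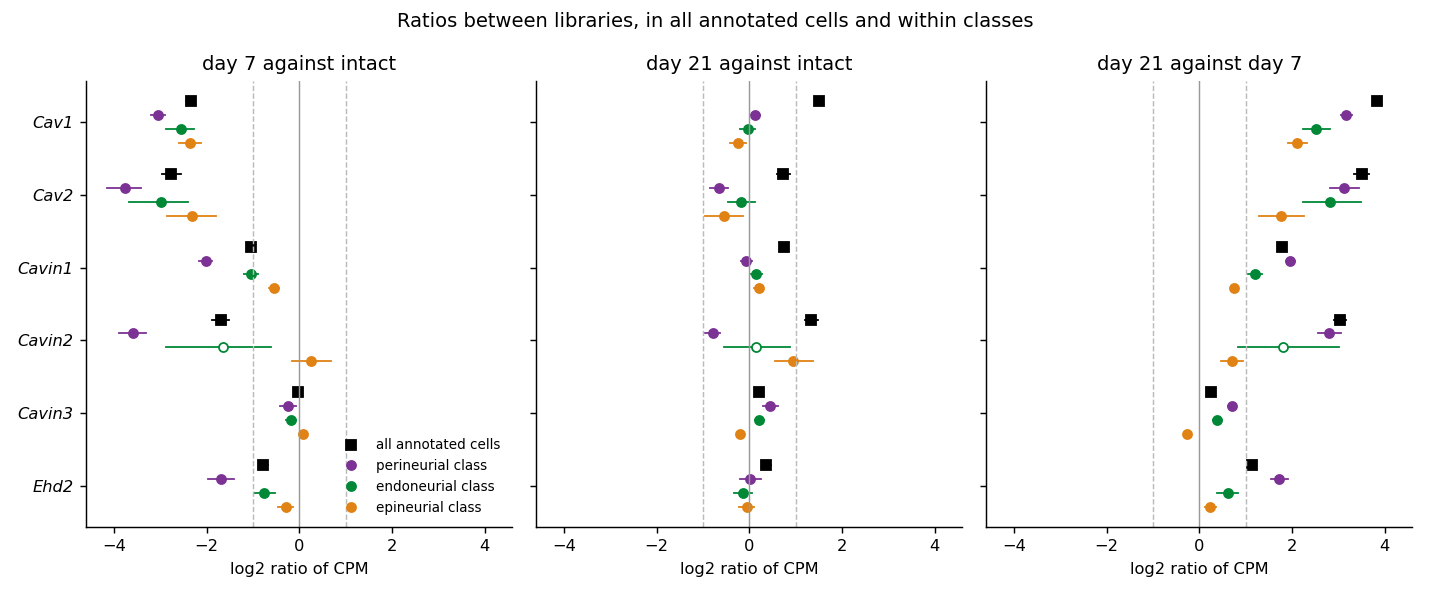
Log2 ratio of CPM for each member in the 3 comparisons, over all annotated cells (squares) and within the 3 layer classes (circles), with exact conditional 95% intervals for counting error; hollow points did not reach 10 CPM and dashed lines mark 2-fold. In the middle panel, Cav1 lies beyond 2-fold over all cells but at 0.12 within the perineurial class.

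The perineurial class was not alike in the 3 libraries. The summed level of its 8 markers was 5421 CPM in intact nerve, 756 CPM at day 7 and 2882 CPM at day 21. The caveolae genes and the summed markers of the class thus dipped together at day 7. By gene, Cldn1, Moxd1, Krt19 and Ocln were above intact nerve at day 21, with Cldn1 at 1090 against 878 CPM. Slc2a1, Itgb4, Lypd2 and Msln were below it. Of these, Msln was lowest at day 21, at 393, 53.6 and 23.8 CPM in the order of the libraries. When each cell was thinned to 2000 UMIs, 34 of 241 day 7 cells (14.1%) had 3 or more perineurial markers, against 94 of 116 intact cells (81.0%) and 1302 of 2069 day 21 cells (62.9%). Among day 7 perineurial cells, Cav1 stood at 62.8 CPM in the 169 cells with 0 or 1 markers, 269 CPM in the 38 with 2 and 407 CPM in the 34 with 3 or more. Cavin2 stood at 16.4, 60.3 and 134 CPM in the same cells. Both genes were higher in cells with more markers.

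Cells with 3 or more markers were compared across libraries, a comparison added after the levels had been seen. Cav1 was then at 407 CPM at day 7 against 1293 CPM in intact nerve, which is 3.18-fold lower (95% interval 2.71 to 3.74), and at day 21 at 1414 CPM. Cav2 was 4.21-fold lower at day 7 than in intact nerve (2.99 to 6.06), Cavin2 3.87-fold (2.95 to 5.14) and Cavin1 2.22-fold (1.90 to 2.60). Ehd2 was 1.44-fold lower (1.07 to 1.93), and Cavin3 had a log2 ratio of 0.04. In these cells the day 7 ratios were smaller than in the whole class, and 4 members were past 2-fold lower, beside 15% of the 8525 genes compared in these cells. Against intact nerve, Cav2 and Cavin2 of day 21 had log2 ratios of -0.59 and -0.75 in these cells, beside 0.13 for Cav1.

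**Figure D3:**
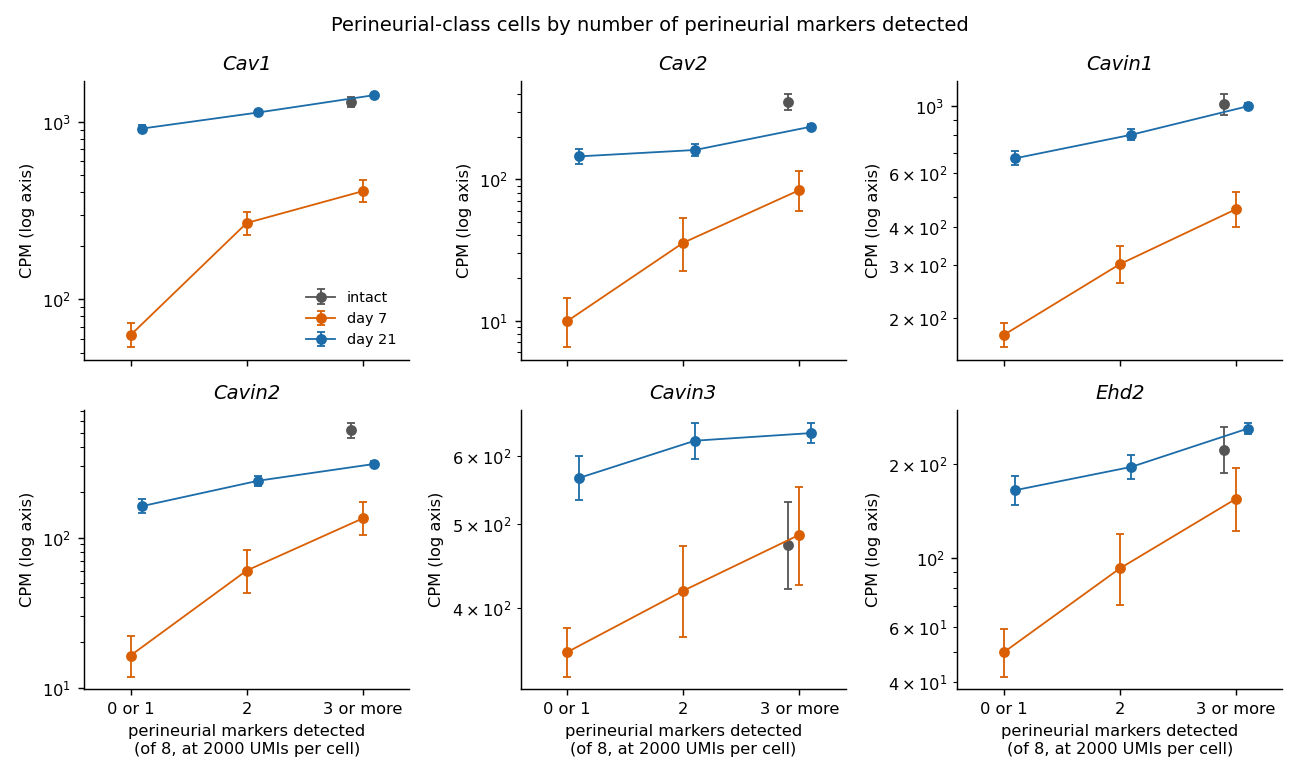
Level of each member (CPM, log axis) in perineurial-class cells, split by how many of 8 perineurial markers had a UMI after thinning to 2000 UMIs per cell; bars are exact 95% Poisson intervals. Intact nerve is shown for 3 or more markers only, where it had 94 cells. Day 7 Cav1 runs from 62.8 to 407 CPM across the bins, below the day 21 points in each bin.

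Per cell, at 2000 UMIs, intact perineurial cells had a UMI of 3.47 of the 6 members on average, day 7 cells of 1.26 and day 21 cells of 3.31. A Cav1 UMI was found in 78.4% of intact, 15.8% of day 7 and 84.9% of day 21 perineurial cells at this depth. Without thinning the shares were 94.8%, 46.5% and 97.1%, at median depths of 5291, 15443 and 5829 UMIs.

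MES_DIFF cells, which were 308 at day 7 and 387 at day 21, had larger ratios between the bridge libraries than any layer class for Cav1, Cavin1 and Cavin2, though not for Cavin3 and Ehd2. Their day 7 Cav2 was below the myeloid level, so its ratio is not ranked. Between day 21 and day 7, Cav1 stood at 497 against 29.7 CPM, Cav2 at 47.3 against 2.37 CPM and Cavin2 at 89.0 against 6.87 CPM. Cavin1 stood at 610 against 128 CPM and Ehd2 at 126 against 51.1 CPM, while Cavin3 stood at 578 against 409 CPM. Thus 5 of 6 members were more than 2-fold higher at day 21, beside 9.04% of genes. The class was not alike in the bridge libraries. Its perineurial markers summed to 1006 CPM at day 21 against 207 CPM at day 7, and epineurial markers to 1342 against 344 CPM. Its endoneurial markers summed to 286 against 1378 CPM and injury mesenchyme markers to 2716 against 7697 CPM. The part of this shift in the result was not tested. Cells with 0 or 1 perineurial markers were 96.8% of the class at day 7 and 69.3% at day 21. Cav1 stood at 28.9 CPM in these day 7 cells. Among day 21 MES_DIFF cells, Cav1 stood at 364 CPM in the 268 cells with 0 or 1 perineurial markers, 765 CPM in the 76 with 2 and 945 CPM in the 43 with 3 or more. Even the cells with few perineurial markers thus lay above the epineurial class, at 78.5 CPM.

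Dividing cells, 206 at day 7 and 119 at day 21, had Cav1 at 310 CPM at day 21 against 73.8 CPM at day 7, and Cav2 at 99.9 against 25.9 CPM. Cavin2 was at 58.0 against 21.5 CPM, and with the caveolins made 3 of 6 members past 2-fold, beside 7.51% of genes. In dividing cells, Schwann markers summed to 1946 CPM at day 21 against 402 CPM at day 7, perineurial markers to 619 against 239 CPM, smooth muscle markers to 300 against 1462 CPM and injury mesenchyme markers to 1059 against 3418 CPM. Their part in the result was not tested. The 94 MES_EPI-diff cells of day 7 had Cavin1 at 110 CPM, Ehd2 at 45.4 CPM and Cav1 at 38.8 CPM. Their Cavin1 and Ehd2 were the lowest of any class with at least 50 cells, with intervals that overlapped those of day 7 MES_DIFF cells.

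To show how far low counts can be read, levels were set beside barcodes that the authors gave no class and that carried 3 or more markers of a single other cell type. Myeloid cells, which should hold few caveolae, had Cav1 at 6.51 CPM in 350 barcodes of day 7 and 83.0 CPM in 179 barcodes of day 21, and intact nerve had 2 such barcodes, too few to read. At 2000 UMIs, 1.2% of day 7 and 6.02% of day 21 myeloid barcodes (95% interval 2.93% to 10.8%) had a Cav1 UMI, at unthinned median depths of 4666 and 6117 UMIs. Of the day 21 myeloid Cav1 counts, 97.0% came from 18 barcodes. These barcodes also held layer markers, with perineurial, endoneurial and epineurial sums of 178, 319 and 252 CPM at day 21 and 43.8, 1892 and 328 CPM at day 7, where Spp1, which macrophages also express, made 1789 CPM of the endoneurial sum. Whether some of them held RNA of 2 cells was not tested, so the level used as background may be too high. Epineurial Cav1 at day 21, at 78.5 CPM, lay no higher than the myeloid level, and 9.74% of epineurial cells had a Cav1 UMI at 2000 UMIs (95% interval 7.99% to 11.7%), an interval that overlapped the myeloid one, so the level there cannot be told apart from background. In epineurial cells, 68.6% of the day 21 Cav1 counts came from 103 of 1027 cells.

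For Cav2, the myeloid level was 7.81 CPM at day 7 and 21.6 CPM at day 21. Day 7 endoneurial, epineurial and MES_DIFF cells, at 6.69, 3.91 and 2.37 CPM, and day 21 epineurial cells, at 13.3 CPM, were at or below it, so Cav2 in these cells was not detectable above background. Perineurial Cav2 was above it in both bridge libraries. Myeloid Cavin1 was at 45.1 and 107 CPM and myeloid Cavin3 at 104 and 68.9 CPM, each below the 3 layer classes.

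Endothelial barcodes, from vessels known for many caveolae, were rich in Cav1 and Cavin2. Cav1 there stood at 716 CPM in 40 intact barcodes, 690 CPM in 93 of day 7 and 1305 CPM in 171 of day 21, so its day 7 level was close to that of intact nerve. That gap was not compared with the one in perineurial cells by a test. Cavin2 there stood at 636, 253 and 741 CPM and Ehd2 at 197, 260 and 467 CPM. Vascular smooth muscle barcodes had high Cavin1, at 787, 259 and 1060 CPM in 244, 63 and 35 barcodes, but hardly any Cavin2, at 3.21, 8.54 and 5.58 CPM. Pericyte barcodes had Cav1 at 359, 11.4 and 203 CPM in 22, 71 and 78 barcodes, resting on 22, 10 and 58 counts. At day 7, 78 of 676 epineurial cells also had 3 or more pericyte markers. The list thus does not mark pericytes alone, and whether these barcodes are the same cell type in each library was not tested. Schwann barcodes of day 7 and day 21 had Cav1 at 32.2 and 161 CPM and Cav2 at 56.5 and 54.8 CPM.

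**Figure D4:**
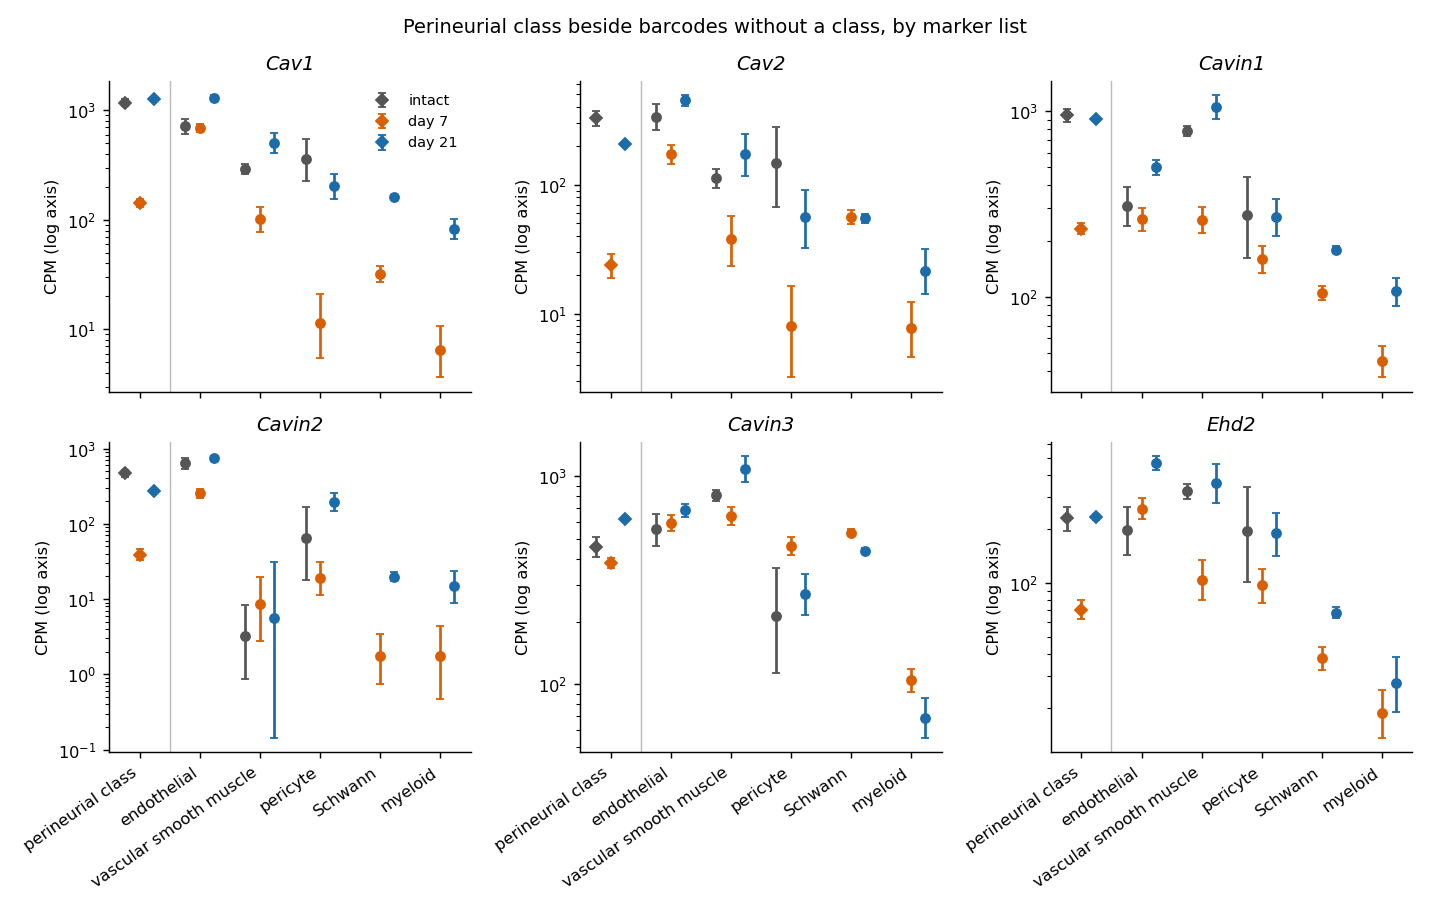
Level of each member (CPM, log axis) in the perineurial class (diamonds) and in barcodes without a class that had 3 or more markers of a single cell type (circles), by library in the order intact, day 7 and day 21, with exact 95% Poisson intervals. Schwann and myeloid barcodes of intact nerve were too few to plot. Endothelial Cavin2 is at 636, 253 and 741 CPM and smooth muscle Cavin2 under 10 CPM in each library.

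Markers of other cell types moved with these values in part. In perineurial cells the 6 smooth muscle markers summed to 1983 CPM in intact nerve, 239 CPM at day 7 and 133 CPM at day 21. Of these, Tagln was at 1405, 150 and 126 CPM, and Acta2 at 543, 80.0 and 3.96 CPM, while Cnn1 and Des were at 0 in intact cells. The 8 endothelial markers summed to 357, 243 and 285 CPM, of which Cdh5 made 352, 193 and 267 CPM and Emcn 5.52, 38.4 and 12.6 CPM, while Pecam1 was at 0, 1.87 and 0.748 CPM. The 6 pericyte markers summed to 666, 156 and 368 CPM, nearly all of it Vtn. The 8 Schwann markers summed to 125, 116 and 309 CPM. The 8 endoneurial markers summed to 756, 864 and 332 CPM, of which Spp1 made 361, 436 and 39.8 CPM, and at day 7 this exceeded the perineurial sum. Higher at day 7 as well, the 6 injury mesenchyme markers summed to 509, 1488 and 730 CPM, highest where the caveolae genes were lowest. Of these, Aldh1a3 made 55.2, 602 and 43.1 CPM and Cthrc1 2.76, 292 and 3.44 CPM. Only Postn was highest at day 21, at 447, 517 and 677 CPM. The part of these markers in the result was not tested. Without the cells that had 3 or more markers of another type, which were 10 of 116, 37 of 241 and 210 of 2069, perineurial Cav1 was at 1211, 146 and 1278 CPM. Cavin2 was at 455, 44.3 and 277 CPM in them, so day 7 was still the lowest for both.

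Of the protein-coding neighbours of Cav1 besides Cav2, none had its pattern of levels over all annotated cells. Within 500 kb lay 23 other annotated genes besides Cav2, 5 of them protein-coding, and 3 of the 23 reached 10 CPM in at least 1 library. Tes, a LIM-domain protein of focal adhesions and the nearest protein-coding gene on the far side of Cav2, stood at 1.43 CPM in intact nerve (12 counts), 11.7 CPM at day 7 and 1.40 CPM at day 21. Over all annotated cells Tes was thus 8.18-fold higher at day 7 than in intact nerve (95% interval 4.63 to 16.0), opposite to the caveolins. No such rise was seen in perineurial cells, where Tes was at 5.52, 3.73 and 0.673 CPM (4, 14 and 9 counts). In MES_DIFF cells Tes was at 1.28 CPM at day 21 against 21.5 CPM at day 7. Capza2, an actin capping protein, was at 142, 180 and 185 CPM, and St7 at 9.91, 12.3 and 9.59 CPM. Met, the receptor of hepatocyte growth factor, was at 2.75, 1.71 and 0.802 CPM, and Tfec had no counts. Among the non-coding neighbours at low counts, D830026I12Rik was at 2.51, 0.194 and 0.920 CPM (21, 7 and 31 counts) and Gm4876, antisense to Tes, at 1.31, 0.249 and 1.78 CPM (11, 9 and 60 counts). Both were lowest at day 7, and in perineurial cells they stood at 12.4, 1.07 and 2.02 CPM and at 4.14, 1.07 and 3.51 CPM. Annotated genes overlapping members on the opposite strand had at most 10 counts in any library, and where counting ignores strand, their reads cannot be told apart from the members'.

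Genes that act with caveolae were followed in lists. Of 6 measured accessory genes, which help to shape or scission the pit, 1 was more than 2-fold lower at day 7 than in intact nerve over all annotated cells, beside 9.55% of genes, and 0 were higher. That was Pacsin3, a membrane-bending F-BAR protein, with a log2 ratio of -1.70. In perineurial cells 3 of 6 were lower, Pacsin3 at a log2 ratio of -2.25, Pacsin2 at -1.54 and Ehd1, an endosomal relative of Ehd2, at -1.25, beside 18.6% of genes. By day 21, Pacsin3 was again lower in perineurial cells, at 7.70 against 30.3 CPM in intact nerve, and Ror1, a receptor tyrosine kinase that binds caveolar proteins, was higher, at 44.9 against 16.5 CPM, each 1 of 6, beside 10.1% of genes lower and 6.99% higher.

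The clathrin and flotillin list, covering other routes of uptake, had 0 of 13 members past 2-fold in any of the 3 comparisons, over all annotated cells or in perineurial cells, where between 4.04% and 18.6% of genes were past it in a given direction. At day 7 against intact nerve, 1 of 13 was higher in endoneurial cells, beside 8.53% of genes, and 1 of 13 lower in epineurial cells, beside 8.16%. Its largest log2 ratio at day 7 against intact nerve over all annotated cells was -0.88, for Eps15. Of the proteins held in or bound at caveolae, 0 of 9 were past 2-fold over all annotated cells at day 7 against intact nerve. In perineurial cells 3 of 9 were lower, among them the insulin receptor Insr at -1.82 and the arginine transporter Slc7a1 at -1.69, beside 18.6% of genes, and 2 were higher, beside 11.4%, among them the kinase Fyn at 2.09.

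The cholesterol supply genes were low in both bridge libraries. Over all annotated cells, 7 of 9 measured were more than 2-fold lower at day 7 than in intact nerve, beside 9.55% of genes, and 0 were higher, with a median log2 ratio of -1.83 beside 0.01 over all genes. Idi1, an isoprenoid isomerase, stood at 7.16 against 63.3 CPM and the squalene epoxidase Sqle at 5.89 against 33.3 CPM. Set against intact nerve, day 21 had 6 of 10 lower, beside 4.93% of genes, with a median of -1.07 beside 0.10 over all genes, and 1 was higher, beside 4.9%. Cholesterol genes thus stayed low at day 21, when Cav1 was high. In perineurial cells 7 of 10 were lower at day 7, beside 18.6% of genes, and 7 of 10 at day 21, beside 10.1%, each against intact nerve. Abca1, which exports cholesterol, was the 1 member higher at each time, with log2 ratios of 1.54 at day 7 and 1.75 at day 21, beside 11.4% and 6.99% of genes.

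YAP pathway genes, which respond to cell stretch, followed the caveolins in part, mainly in perineurial cells. At day 7 against intact nerve, 2 of 7 measured were more than 2-fold lower over all annotated cells, beside 9.55% of genes. The same held for 2 of 7 in endoneurial and 1 of 7 in epineurial cells, beside 9.68% and 8.16%. In perineurial cells, 6 of 8 measured were more than 2-fold lower at day 7 than in intact nerve, beside 18.6% of genes, and 0 were higher, beside 11.4%. Crim1, a membrane-bound BMP antagonist, stood at 27.5 against 229 CPM, Amotl2, an angiomotin at junctions, at 28.8 against 212 CPM and Ctgf, a secreted matricellular protein, at 42.9 against 188 CPM. By day 21, 4 of 8 were lower than in intact nerve, beside 10.1% of genes, with Amotl2 at 54.3 against 212 CPM. Amotl1 was higher, at 138 against 66.2 CPM, 1 of 8 beside 6.99% of genes. Crim1 was then at 65.3 against 229 CPM, where Cav1 had returned to its intact level. In intact nerve, 7 of 8 were more than 2-fold higher in perineurial than in endoneurial cells, beside 18.8% of genes. Against epineurial cells, 4 of 8 were higher there, beside 18.8%. At day 7 that contrast had 1 of 8 higher and 3 lower, beside 8.92% and 8.43% of genes. At day 21 it had 3 of 8 higher and 2 lower, beside 11% and 9.12%.

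Over the 13 class and library groups with at least 100 cells, Cav1 had its most similar profiles, by Pearson correlation of log2(CPM + 1), in Mindy2 (0.97), Mid1ip1 (0.96) and Cav2 (0.95), out of 4479 genes. Mid1ip1, a regulator of acetyl-CoA carboxylase, was at 296, 57.3 and 234 CPM in perineurial cells of intact nerve, day 7 and day 21. Cavin2 was nearest to Lmo7 (0.97), Myo1c (0.95) and Tjp1 (0.94). Lmo7, an adherens junction protein, was at 186, 16.8 and 114 CPM in perineurial cells, and Tjp1, the tight junction scaffold ZO-1, at 510, 131 and 326 CPM. Like Cavin2, both stayed below the intact level at day 21. Both were picked for their likeness to Cavin2 over these same groups, so this shared pattern is no separate result.

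Cavin1 was nearest to Klf7 (0.97), Arhgap5 (0.95) and Plscr4 (0.95), and Ehd2 to Zc2hc1a, Gypc and Mapre2, with Cavin1 at rank 5. Cav2 was nearest to Cav1, Tmem109 and Gypc. Cavin3 had no profile as close as these, its nearest being Megf9 (0.82), Ubtf (0.82) and Cnot6l (0.80), and its correlation with the other members lay between 0.46 and 0.55. The groups share libraries and class makeup, so these correlations describe 13 points that are not independent.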

How the data were processed

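Single-cell libraries of sorted TdTomato-positive cells from intact nerve and from the bridge at day 7 and day 21 were used, 1 per group. The authors deposited matrices of raw UMI counts. For these the submitters' processing notes list Cell Ranger 6.1.2 and 3.0.2, Seurat 4.0.1 and the build mm10 (GRCm38), and the file headers name version 6.1.2. The authors' cell classes were taken from their deposited metadata. Of 7235 cells listed, 7234 were found among 14703 barcodes, and doublets were handled only as far as the authors' annotation did. Whether counting used strand is not stated in these sources.

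Counts were summed per library and class and scaled to the summed UMIs (CPM), with exact 95% Poisson intervals. Annotated cells held 8371421 UMIs in intact nerve, 36169912 at day 7 and 33683464 at day 21. Log2 ratios add 0.5 counts to each sum, and a fold uses the unmodified CPM, with an exact conditional binomial interval. Genes were compared with at least 10 CPM in the higher group and at least 10 counts in both together, and called past 2-fold. Shares of cells used exact Clopper-Pearson intervals, after thinning each cell to 2000 UMIs with a fixed seed. All intervals cover counting error only, and neither p-values nor cells as replicates were used. The scripts were tested on simulated data.

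The 6 members and all lists were chosen with earlier results of these data known, so the patterns they show are no independent support. Members are named in full. From each list, up to 3 genes of at least 20 CPM with the largest ratio were eligible, and the YAP list leaves out Lats2, whose symbol occurs more than once. Named outside this rule were Amotl1 at day 21 and Abca1 at day 7. Each was the only member of its list more than 2-fold higher in perineurial cells against intact nerve. Neighbours were taken from GENCODE M21 and promoter windows from RefSeq, where 5 of the 6 members matched and Cavin3 did not. Alternatives covered weighting each cell alike, scaling by the median gene, no minimum, a 1.5-fold threshold, thinned cells, every barcode, 1 class mixture, cells without the dividing class, day 7 perineurial cells with 3 or more markers and, added after the data had been seen, cells without other types' markers and perineurial cells of both libraries with 3 or more markers at 2000 UMIs. Analyses used Python 3.11.15 with numpy 2.4.6, scipy 1.17.1, pandas 2.3.3 and matplotlib 3.10.9.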

Additional observations from a re-analysis of the deposited data

Results flagged for a closer look

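A difference in direction between layer classes was looked for in each time comparison, and 6 are listed here. The list is not complete. It leaves out Cavin2 at day 7 against intact nerve, where the classes lay further apart than in any listed case. Epineurial Cavin2 was then at 18.5 against 15.5 CPM and perineurial Cavin2 at 38.9 against 472 CPM. Against intact nerve, Cavin3 at day 7 and Cavin1 at day 21 also differed in direction between epineurial and perineurial cells. None of these differences was tested, since each group was 1 library. Epineurial and perineurial Cavin2 at day 21 against intact nerve lay 1.75 log2 units apart, at 0.95 in epineurial and -0.79 in perineurial cells. Perineurial and epineurial Cav1 in the same comparison lay 0.37 apart, at 0.12 and -0.25, and the day 21 epineurial level was no higher than that of myeloid barcodes.

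Cavin3 accounted for the other 4 of those listed. At day 21 against intact nerve, the perineurial log2 ratio of 0.45 exceeded the epineurial one of -0.20 by 0.65, and the endoneurial one of 0.22 exceeded it by 0.42. At day 21 against day 7, the perineurial ratio of 0.70 exceeded the epineurial one of -0.27 by 0.98, and the endoneurial one of 0.39 exceeded it by 0.66.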

How the results depend on the processing

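No paired analysis was possible because each group is 1 library, and for the same reason no library could be left out. The count of members more than 2-fold higher at day 21 than in intact nerve, 2 over all annotated cells, was 4 at 1.5-fold, 1 over every barcode and 0 with 1 class mixture. With 1 class mixture Cavin2 in that comparison had a log2 ratio of -0.67, against 1.33 without it. Perineurial cells, whose share differs between the libraries, then weigh alike in each. Log2 ratios kept their sign in 15 of 18 cases with 1 class mixture and in 68 of 72 with each cell weighted alike. This held for 17 of 18 each over every barcode, in thinned cells and in perineurial cells of 3 or more markers at 2000 UMIs. Without cells holding other types' markers, 71 of 72 kept their sign. Every other count of members past 2-fold stayed within 1.5 times its value under every alternative run. Log2 ratios moved by at most 0.14 when scaled to the median gene, 0.35 in cells thinned to 2000 UMIs, 0.62 with each cell weighted alike, 0.54 without dividing cells, 0.51 without cells holding other types' markers, 0.66 with the 126 of 241 day 7 perineurial cells that had 3 or more markers at full depth, and 1.17 over every barcode. They moved by up to 1.71 with perineurial cells of 3 or more markers at 2000 UMIs in both libraries, an alternative added after the data had been seen, in which Cav1 at day 7 against intact nerve had a log2 ratio of -1.67 against -3.05 in the whole class, and 4 members were lower in place of 5. Low counts limit Cav2 and endoneurial Cavin2 most, since day 7 endoneurial cells held 25 and 10 counts of them.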
